A study of Sus scrofa with 14 samples.

Results

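Collagen genes of the pig mammary gland were followed over 5 reproductive stages. They were taken as every gene whose symbol in the deposited gene tables reads COL, a number, A and a number with no other letters. The rule found 37 of 28711 genes in the nuclei and 39 of 21280 genes in the tissue sections, which also list COL6A5 and COL9A3. Multiparous sows in their second breeding cycle gave the glands, with 2 glands on day 90 of gestation (G90), 2 on day 0 (L0) and 2 on day 20 (L20) of lactation, and 2 each at 2 days (PI2) and 7 days (PI7) after natural involution had begun. Nuclei from frozen tissue were sequenced for these 10 glands, 1 section each of a G90 and a PI2 gland was profiled on spots that can hold several cells, and the milk samples were not analysed here. All sows were untreated, no stage had a second kind of animal to compare with, and the 2 sows of a stage are the replicates. In the stage tests, p-values thus measure the spread between sows. In comparisons of cell classes the sow is a block, and p-values measure how class differences vary between sows, pooled over classes.

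Collagens are proteins of 3 chains wound into a triple helix, and each gene encodes a chain. Fibrillar collagens form the tension-bearing fibrils of connective tissue, and fibril-associated and beaded filament collagens coat and link them. Type IV collagens form the network of basement membranes, the sheets under epithelium and around vessels, fat and muscle cells, and transmembrane collagens anchor cells to them. In the mammary gland, the alveoli stand on a basement membrane within a fibrous and fatty stroma that is rebuilt in every reproductive cycle.

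Between 9332 and 18693 nuclei and between 18700704 and 53161349 UMIs per gland were kept. A UMI marks 1 captured RNA molecule, and CPM is a UMI count scaled to a total of 1000000 UMIs in the same sum. Nuclei were assigned to a cell class when they held at least 2 different marker genes of it and more than of any other class, and no collagen was a marker. Lymphatic nuclei, which also carry endothelial markers, were not compared with the blood endothelial list, and a blood endothelial nucleus could hold no lymphatic marker, so that 4186 nuclei were blood endothelial and 2273 others of that pattern were left without a class. L20 replicate 2 stood apart, with 10.8% luminal epithelial and 27.6% fibroblast nuclei and 467 of the adipocyte nuclei, where the other glands had 2 to 26. Libraries shared at most 205 cell barcodes. As a check of the tissue label, ELF5, a transcription factor of the mammary luminal lineage, was at 115 to 1237 CPM in the whole glands, while KRT19, KRT17, DSC3, SCARA5, ADGRE1, AQP7 and GFRA3 of the marker lists were not in the files used here.

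The upstream DNA of 5 collagen genes is shown, since COL1A1 and COL1A2 had the largest fold changes in fibroblast nuclei, COL17A1 in myoepithelial and COL8A1 in lymphatic nuclei, and COL4A5 was highest in myoepithelial nuclei in every gland. Each sequence holds the 250 bases before the annotated start in RefSeq on Sscrofa11.1, 5′ to 3′ on the strand of the gene. Capitals mark 3 short words that were searched on both strands. The first is the TATA box, spelled TATAAA. The second is the word of the CCAAT box, spelled as in its name. The third is the GC box, whose letters are GGGCGG. A word on the opposite strand appears as its reverse complement, and no search excluded overlaps. Among 20638 promoters of the same length, 10.4% held the first, 32.0% the second and 44.5% the third on either strand. COL1A1 lies on the minus strand and its sequence is chr12:26397181-26397430, and COL1A2 lies on the plus strand with chr9:74174234-74174483. COL17A1 lies on the minus strand with chr14:115007735-115007984, COL4A5 on the plus strand with chrX:88958587-88958836, and COL8A1 on the minus strand with chr13:159374719-159374968.
COL1A1: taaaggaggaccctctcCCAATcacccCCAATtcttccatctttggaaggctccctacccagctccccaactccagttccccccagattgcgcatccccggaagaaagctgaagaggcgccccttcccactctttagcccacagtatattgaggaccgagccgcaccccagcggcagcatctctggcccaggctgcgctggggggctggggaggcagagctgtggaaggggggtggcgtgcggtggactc
COL1A2: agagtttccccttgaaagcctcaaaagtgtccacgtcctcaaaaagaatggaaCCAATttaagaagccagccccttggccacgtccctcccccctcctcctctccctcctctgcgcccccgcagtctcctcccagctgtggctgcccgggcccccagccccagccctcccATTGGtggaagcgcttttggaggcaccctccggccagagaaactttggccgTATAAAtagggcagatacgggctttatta
COL17A1: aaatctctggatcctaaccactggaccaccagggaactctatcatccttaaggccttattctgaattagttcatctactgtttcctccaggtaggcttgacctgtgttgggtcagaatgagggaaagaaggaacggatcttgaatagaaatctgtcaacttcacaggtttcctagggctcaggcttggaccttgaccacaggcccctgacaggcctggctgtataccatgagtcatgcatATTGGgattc
COL4A5: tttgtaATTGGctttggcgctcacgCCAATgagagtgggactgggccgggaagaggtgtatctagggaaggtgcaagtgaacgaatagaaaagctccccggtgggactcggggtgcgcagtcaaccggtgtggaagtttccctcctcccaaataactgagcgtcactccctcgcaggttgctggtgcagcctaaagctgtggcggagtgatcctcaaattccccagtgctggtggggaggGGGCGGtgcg
COL8A1: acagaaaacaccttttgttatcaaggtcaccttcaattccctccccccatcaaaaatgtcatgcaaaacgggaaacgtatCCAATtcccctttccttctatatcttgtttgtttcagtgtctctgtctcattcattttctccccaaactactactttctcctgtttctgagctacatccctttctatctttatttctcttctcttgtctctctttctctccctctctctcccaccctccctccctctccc
COL1A2 held TATAAA 29 bases before its start and 2 CCAAT words. COL1A1 held 2 CCAAT words and no TATAAA in the 250 bases before its annotated start. Where transcription starts in these nuclei was not tested, so a word near another start would be missed. COL4A5 held 2 CCAAT words and 1 GGGCGG, and COL17A1 and COL8A1 held 1 CCAAT word each. COL4A6 and COL19A1, searched in the same way and not printed, held 0 CCAAT words, and COL4A6 held TATAAA on the opposite strand 118 bases before its start. Such matches describe letters and not binding, and since the genes were chosen nothing is read from how many held a word.

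In whole glands, 29 collagens had a mean of at least 10 CPM over the 10 glands, 6 lay between 1 and 10 CPM, and 2 lay under 1 CPM. These 2 were COL2A1 and COL10A1, chains of cartilage collagens, named after their values were seen. Summed collagens had 2783 and 1049 CPM in the G90 glands, 785 and 502 in the L0 glands, 1754 and 7191 in the L20 glands, 2467 and 719.7 in the PI2 glands and 2938 and 1814 in the PI7 glands. Stage means were 1916 ± 1226 CPM (SD, n = 2) for G90, 643 ± 199.7 for L0, 4472 ± 3845 for L20, 1593 ± 1236 for PI2 and 2376 ± 795 for PI7, so that the spread within a stage was as wide as most gaps between stages. The share of fibroblast nuclei was likewise lowest at L0 and highest at L20, while G90 and PI2 stood in the opposite order to their summed collagens. It was 4.15 ± 3.57%, 1.12 ± 0.87%, 15.7 ± 16.8%, 5.75 ± 6.34% and 8.54 ± 1.20% in the same order. Without nuclei carrying markers of another class these shares were 2.35%, 0.756%, 10.4%, 3.35% and 4.48%. In a whole-gland sum, fewer cells of a type and less RNA per cell cannot be told apart.

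COL1A1 and COL3A1 were highest in L20 replicate 2 and lowest in L0 replicate 2. COL1A1, a chain of type I collagen, had 279 and 35.5 CPM in the G90 glands, 47.3 and 11.3 in the L0 glands, 219.7 and 1166 in the L20 glands, 192 and 22.8 in the PI2 glands and 207 and 128 in the PI7 glands. COL3A1, the chain of type III collagen of pliable tissues, had 369 and 57.4 CPM in the G90 glands, 65.3 and 15.9 in the L0 glands, 185 and 1342 in the L20 glands, 245 and 30.8 in the PI2 glands and 324 and 136 in the PI7 glands. For both genes the 2 glands lay further apart at G90, L20 and PI2 than at PI7, and the ranges of most stages overlapped. COL4A2, a chain of the basement membrane network, spread less, with 256 and 237 CPM in the G90 glands, 97.5 and 58.1 in the L0 glands, 186 and 389 in the L20 glands, 139 and 97.3 in the PI2 glands and 218 and 151 in the PI7 glands. COL17A1, the transmembrane collagen of the hemidesmosome, had 55.7 and 11.7 CPM in the G90 glands, 49.2 and 32.2 in the L0 glands, 100.1 and 36.3 in the L20 glands, 60.8 and 71.2 in the PI2 glands and 128 and 80.4 in the PI7 glands. Of the 37 members, 17 were highest in L20 replicate 2 and 17 were lowest in L0 replicate 2. No share of all genes is given beside these counts, and other genes moved the same way. By library totals, the median log2 fold change of all genes was -0.58 in L0 against G90 and 0.77 in L20 against L0. That of the members was -1.34 and 1.59.

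Which collagens changed with the stage was tested on the summed UMIs of each sow. The quasi-likelihood test of edgeR, with Benjamini-Hochberg adjustment over 22695 genes, called 0 of 37 members over the stages and 0% of all genes. An unadjusted p under 0.05 was held by 7 members, where 10.1% of genes had one. The contrasts of L0 against G90, L20 against L0, PI2 against L20 and PI7 against PI2 also called 0 members and 0% of genes. At an unadjusted p under 0.05 and a log2 fold change beyond 1 in either direction, these contrasts held 5, 15, 2 and 0 members, where 7.22%, 12.8%, 3.6% and 2.04% of genes passed. DESeq2 called 5 members over the stages, where 6.8% of genes were called, 8 in L20 against L0, where 5.1% were, and 0 in each of the other contrasts, where 1.73%, 0.0749% and 0.0573% were. Without L20 replicate 2 and PI2 replicate 2, glands chosen after the data were seen, edgeR called 2 members over the stages, COL9A1 and COL6A6, where 3.24% of genes were called, and 0 in the contrasts. That fit leaves 1 gland at L20 and at PI2, each assumed to vary like the other stages. The largest shift by p was that of COL6A3, the long chain of type VI collagen, with a log2 fold change of 3.83 ± 0.95 (SE) in L20 against L0 and an adjusted p of 0.179 (edgeR). COL1A1 had 3.85 ± 1.14 with an adjusted p of 0.216 in the same edgeR contrast.

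Fibroblast nuclei held most RNA of COL1A1, COL1A2 and COL3A1. They carried 81.9% of all COL1A1 UMIs, 79.4% of COL1A2, 79.0% of COL3A1, 75.9% of COL6A3 and 72.4% of COL6A1, against 7.8 to 11.6% of the same genes in the far more numerous luminal nuclei. These shares pool the glands, and without L20 replicate 2 the fibroblast shares became 66.1%, 64.0%, 63.5%, 63.6% and 55.5% and the luminal shares of the 5 genes 16.5 to 20.8%. Over the 10 fibrillar chains together the fibroblast share was 67.8% and the luminal share 16.7%, and without L20 replicate 2 they were 49.1% and 30.2%. Luminal nuclei held most RNA of COL11A1 (70.1%), COL27A1 (70.4%, against 9.3% in fibroblasts) and COL11A2 (62.9%, against 7.3%). Pooled over glands, their levels were 41.6, 54.5 and 2.96 CPM in luminal nuclei and 60.0, 65.4 and 3.13 CPM in fibroblast nuclei. These shares thus do not mark a higher level in luminal nuclei. COL11A2 is a cartilage chain named after its values were seen. Without L20 replicate 2 the luminal shares of these 3 genes were 80.0%, 75.5% and 72.7%, and the fibroblast shares 5.64%, 7.60% and 4.03%. Summed collagens of fibroblast nuclei lay between 9757 and 23232 CPM over the 10 glands (mean 15678 ± 4181, SD), and all fibroblast nuclei of a gland held between 8.95% and 80.1% of its collagen UMIs. Mural nuclei, the pericytes and muscle cells of vessel walls, followed with 7668 ± 2142 CPM over 7 glands, then adipocyte nuclei with 4653 ± 1811 over 3 glands and myoepithelial nuclei with 3697 ± 1022 over 10 glands. T and NK lymphocyte nuclei had 976 ± 549 CPM, luminal nuclei 864 ± 353 and macrophage nuclei 833 ± 377 over 10 glands, and what part of these levels was free RNA was not tested.

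**Figure D1:**
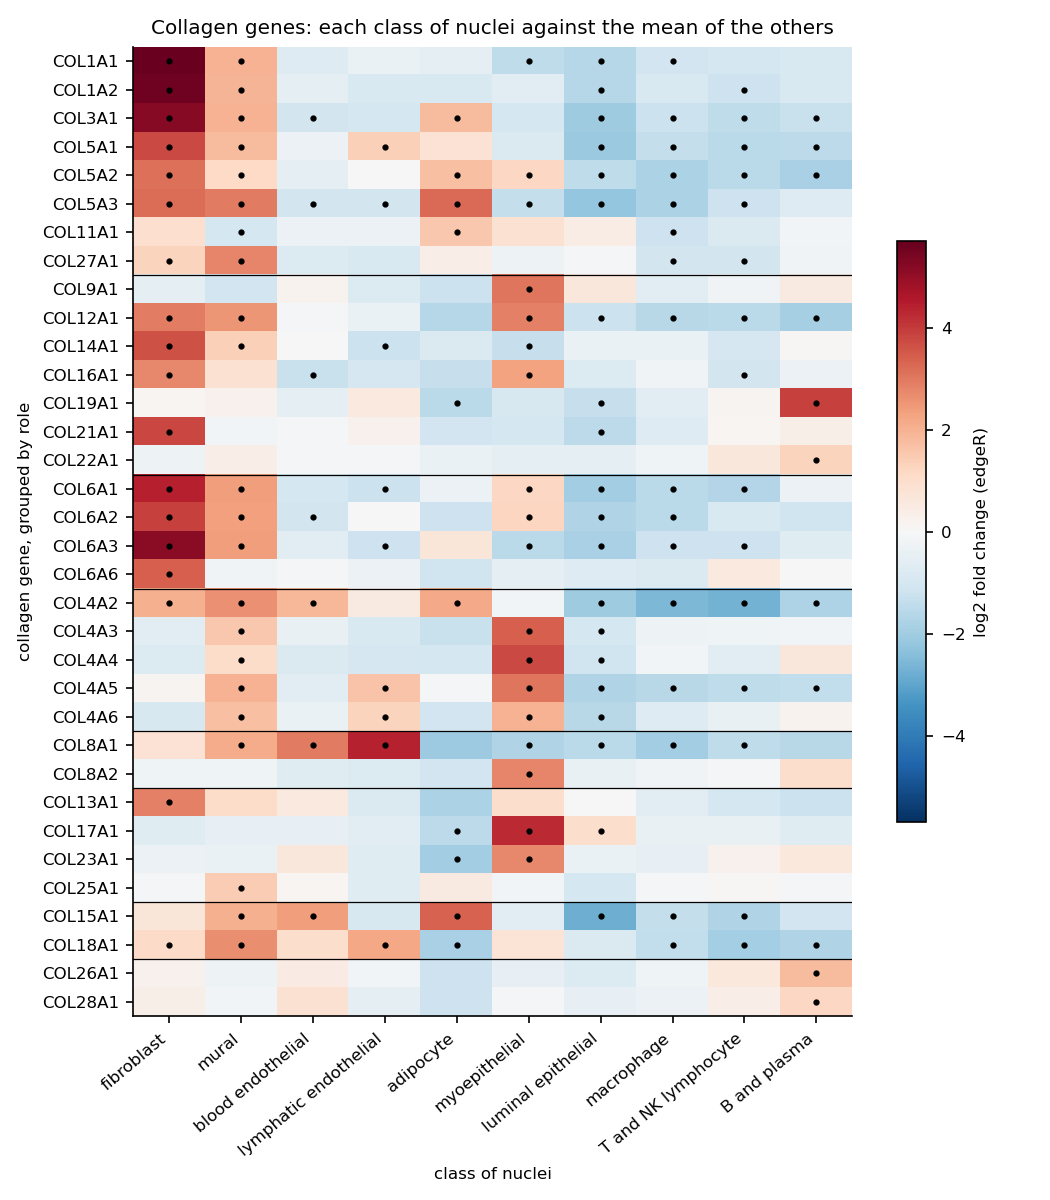
Log2 fold change (edgeR) of each of 34 collagen genes, in rows grouped by role, in each class of nuclei against the mean of the 9 other classes, in columns, with red for higher, blue for lower and a dot for a member that was called. All beaded filament chains and 5 of the 8 fibrillar ones are darkest red in fibroblast nuclei (COL1A1 5.64), while COL5A3 and COL11A1 are so in adipocyte and COL27A1 in mural nuclei. Others are COL4A3 to COL4A5 and COL17A1 in myoepithelial nuclei (COL17A1 4.24), COL8A1 in lymphatic endothelial nuclei (4.39) and COL19A1 in B and plasma nuclei (3.88).

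Each class was compared with the mean of the 9 others on UMIs summed per sow and class, with the sow as a block, and 34 members entered among 12755 genes. A member was called where its edgeR p, adjusted by Benjamini-Hochberg, was under 0.05 and its log2 fold change was beyond 1 in either direction. Fibroblast nuclei were higher for 18 members and lower for 0, where 9.65% of all genes were higher and 2.97% lower, with a median log2 fold change of 1.18 over the members and -0.0034 over all genes. By role these were 7 of 8 fibrillar, 4 of 4 beaded filament and 4 of 7 fibril-associated chains, 1 of 5 type IV chains, 1 of 2 multiplexins and 1 of 4 transmembrane chains. Of the 18, 17 were kept in every other setting, and COL18A1, at 1.11 ± 0.21, fell under the fold limit in 4 of them.

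Among fibrillar chains, COL1A1 led the fibroblast contrast with a log2 fold change of 5.64 ± 0.19 (adjusted p = 1.2e-43, edgeR), followed by its partner COL1A2 with 5.53 ± 0.20 and COL3A1 with 5.20 ± 0.19. The type V chains, which set fibril width, had 3.76 ± 0.19 (COL5A1), 3.13 ± 0.13 (COL5A2) and 3.19 ± 0.17 (COL5A3). COL27A1, a fibrillar chain of cartilage, was higher by 1.25 ± 0.21 in fibroblasts but by 2.77 ± 0.24 in mural nuclei. COL11A1, a chain of cartilage fibrils, was not called in fibroblasts, and was called in adipocyte nuclei with 1.52 ± 0.32, a call that was lost without L20 replicate 2 (0.26).

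Type VI chains form the beaded filaments around cells, and all 4 that were tested were higher in fibroblast nuclei, COL6A3 by 5.16 ± 0.18, COL6A1 by 4.42 ± 0.18, COL6A2 by 3.88 ± 0.22 and COL6A6 by 3.39 ± 0.22 on the log2 scale. COL6A3 lay between 943 and 2559 CPM in fibroblast nuclei and between 0 and 87.4 CPM in T and NK nuclei. COL6A6 differed most between glands. Its fibroblast level was 20.2 and 7.06 CPM in the G90 glands, 6.14 and 0 in the L0 glands, 5.93 and 558 in the L20 glands, 260.1 and 8.14 in the PI2 glands and 170.5 and 102 in the PI7 glands. Both PI7 glands were thus above both G90 and both L0 glands, whereas L20 and PI2 each held 1 high and 1 low gland.

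The fibril-associated chains COL14A1, COL12A1, COL16A1 and COL21A1, which decorate fibril surfaces, had fibroblast log2 fold changes of 3.64 ± 0.17, 2.94 ± 0.26, 2.73 ± 0.19 and 3.82 ± 0.18. COL12A1 and COL16A1 were also higher in myoepithelial nuclei, by 2.89 ± 0.26 and 2.28 ± 0.21. Their median levels there were 417 and 123 CPM over the 10 glands, against 307 and 177 CPM in fibroblast nuclei, and the ranges of both genes overlapped between these classes. COL13A1, a transmembrane chain of muscle and nerve junctions, was sparse but higher in fibroblasts (2.86 ± 0.36), with 0 to 57 CPM.

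**Figure D2:**
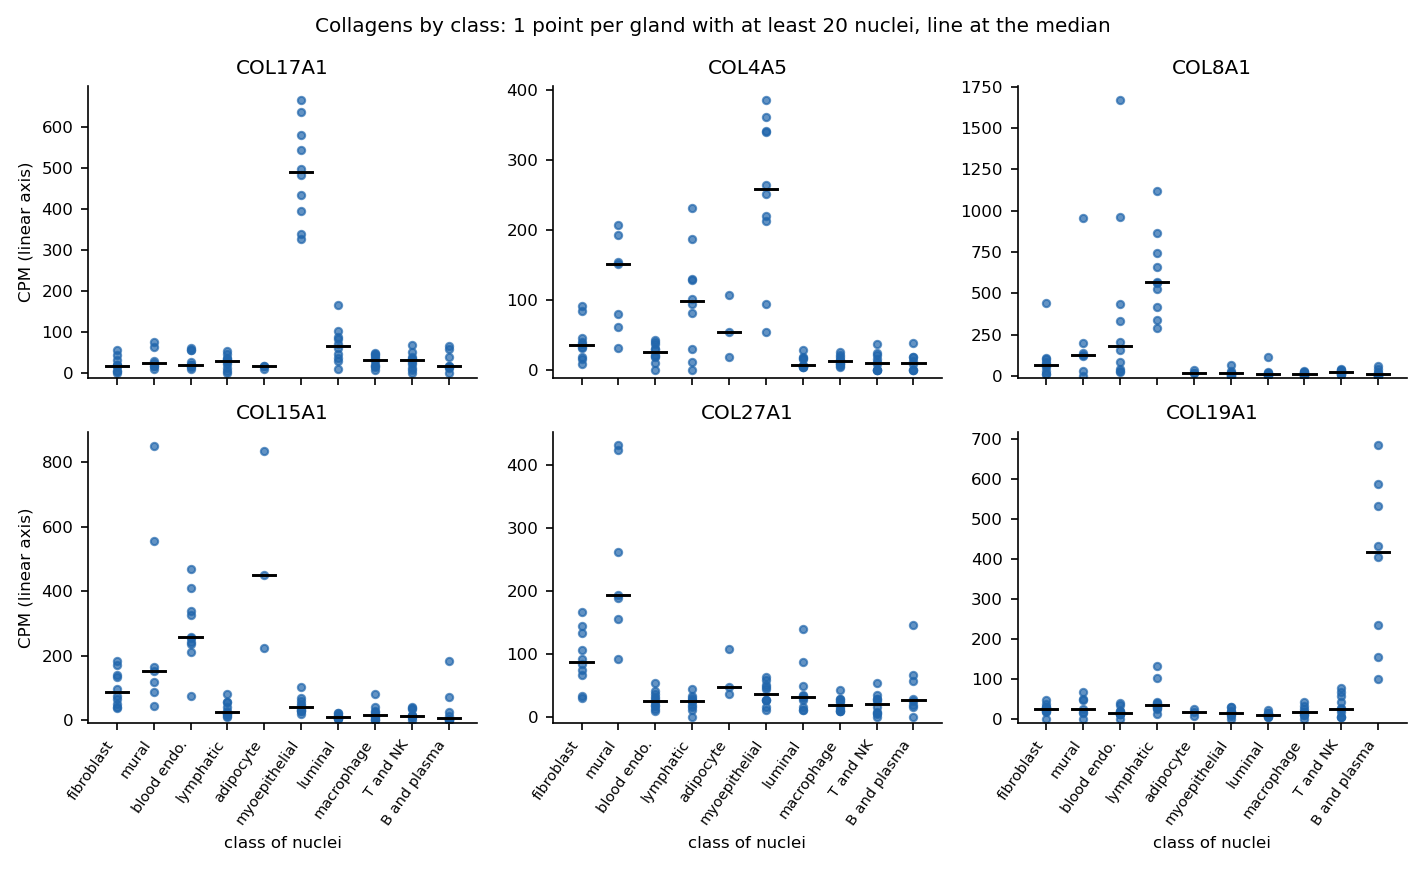
CPM of COL17A1, COL4A5, COL8A1, COL15A1, COL27A1 and COL19A1 in each class of nuclei on linear axes, with 1 point per gland that had at least 20 nuclei of the class and a line at the median. The 10 myoepithelial points of COL17A1 lie between 327 and 666 CPM, above every luminal point (at most 165 CPM), and the 8 B and plasma points of COL19A1 spread from 100.2 to 683 CPM.

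Myoepithelial nuclei, the contractile cells that squeeze milk from the alveoli and rest on the basement membrane, were higher for 13 members and lower for 5, where 8.32% of all genes were higher and 7.06% lower. They held 4 of the 5 tested type IV chains and COL17A1, which ties basal epithelial cells to the basement membrane. COL17A1 had 637 and 339.6 CPM in the G90 glands, 579 and 327 in the L0 glands, 498 and 484 in the L20 glands, 394 and 433 in the PI2 glands and 666 and 544 in the PI7 glands. Myoepithelial nuclei were the highest class for it in 10 of 10 glands, at most 165 CPM was seen in luminal nuclei, and the log2 fold change was 4.24 ± 0.14 (adjusted p = 2.4e-44, edgeR). Because luminal nuclei were so many, they still held 66.8% of COL17A1 UMIs and myoepithelial nuclei 9.5%.

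COL4A3, COL4A4, COL4A5 and COL4A6, the chains of specialised basement membranes, were higher in myoepithelial nuclei by 3.39 ± 0.23, 3.75 ± 0.22, 3.07 ± 0.20 and 1.99 ± 0.20. COL4A5 led all other classes in 10 of 10 glands, with 341 and 213 CPM in the G90 glands, 386 and 340.2 in the L0 glands, 54.4 and 361 in the L20 glands, 265 and 95.1 in the PI2 glands and 221 and 252 in the PI7 glands. COL4A3 and COL4A4 were at 592 and 549 CPM in G90 replicate 1 and at 13.8 to 158 and 18.1 to 197 CPM in the other glands, so 1 gland stood well above 9. These 2 genes lie head to head on chromosome 15 on opposite strands, with annotated spans that overlap by 663 bases. COL4A5 and COL4A6 lie head to head on chromosome X with 207899 bases between their starts. COL4A2, the widespread chain, was not called in myoepithelial nuclei, where it ranged from 197 to 380.5 CPM.

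Other chains that were higher in myoepithelial nuclei were COL9A1 (3.05 ± 0.24), a fibril-associated chain, COL8A2 (2.77 ± 0.34), a network chain, and COL23A1 (2.76 ± 0.18), a transmembrane chain. COL23A1 had its highest level there in 10 of 10 glands, between 95.1 and 444 CPM. COL9A1 was highest there in 9 of 10 glands, and luminal nuclei held 78.3% of its UMIs. Its luminal level was 49.8 and 48.2 CPM in the G90 glands, 6.16 and 7.15 in the L0 glands, 3.03 and 15.5 in the L20 glands, 66.3 and 2.62 in the PI2 glands and 18.0 and 6.17 in the PI7 glands. Luminal COL9A1 was thus high in both G90 glands and in 1 of the PI2 glands, and it was called over the stages in the fit without L20 replicate 2 and PI2 replicate 2 and in no other setting run. COL5A2 and COL6A1 were also called higher in myoepithelial nuclei against the mean of the other classes. Each had a log2 fold change of 1.17 (SE 0.16 and 0.25) and was kept in every setting. COL6A2 was called as well, with 1.23 ± 0.35, a call lost without L20 replicate 2 and without nuclei that carried markers of another class. Of the 5 lower myoepithelial calls, 3 were kept in every setting.

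Mural nuclei were higher for 21 members and lower for 1, where 8.08% of all genes were higher and 2.38% lower, with a median log2 fold change of 1.49 over the members and -0.098 over all genes. All 5 type IV chains and both multiplexins, COL15A1 and COL18A1 of the basement membrane zone, were among them. COL4A2 had 1847 CPM in mural nuclei of G90 replicate 1, 2649.9 in L0 replicate 1, 3564 and 1189 at L20, 767 in PI2 replicate 1, and 1096 and 834 at PI7, and mural nuclei were the highest class in 7 of 7 glands. The leading fold changes were those of COL5A3 (2.97 ± 0.20), COL27A1 (2.77 ± 0.24), COL18A1 (2.67 ± 0.23) and COL4A2 (2.60 ± 0.22). COL25A1, a transmembrane chain, was higher by 1.43 ± 0.28, with 15.4 to 75.8 CPM in mural nuclei, and was called in no other class. The tissue sections held 2 COL25A1 UMIs at G90 and 0 at PI2. COL1A1 and COL3A1 were higher by 1.97 ± 0.24 and 1.99 ± 0.23, at 261 to 621 and 329 to 914 CPM. Summed over the 11 fibroblast markers, mural nuclei had 354 to 1026 CPM per gland, T and NK nuclei 81.7 to 469 CPM and fibroblast nuclei 6012 to 10385 CPM. What part such RNA had in the mural levels was not tested. Of the 21 calls, 17 were kept in every setting, and those of COL4A4, COL5A2, COL8A1 and COL14A1 were not. The lower call, that of COL11A1, was not kept in every setting either. Without nuclei carrying markers of another class, COL14A1 fell to 0.014 (adjusted p = 0.991, edgeR) and COL8A1 to 1.07 (adjusted p = 0.114, edgeR). COL4A4 was lost under the stricter gate (adjusted p = 0.0731, edgeR), among other settings, and COL5A2 fell to 0.99 without L20 replicate 2.

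Of the endothelial classes, lymphatic nuclei were higher for 5 members and lower for 4, where 9.1% of genes were higher and 7.34% lower. All 5 higher calls and 2 of the 4 lower ones were kept in every setting. COL8A1, a chain of the network collagen of vessel walls, led with 4.39 ± 0.30 (adjusted p = 1.6e-23, edgeR), and COL18A1, the source of endostatin, had 2.20 ± 0.20. In lymphatic nuclei COL8A1 had 661 and 1117 CPM in the G90 glands, 564 and 865 in the L0 glands, 522 and 744 in the L20 glands, 289.8 and 566 in the PI2 glands and 415 and 339 in the PI7 glands. Blood endothelial nuclei were higher for COL8A1 (2.97 ± 0.31), COL15A1 (2.38 ± 0.23) and COL4A2 (1.89 ± 0.20) and lower for 4 members, where 7.7% of genes were higher and 1.43% lower. Of these 4, COL16A1 alone was kept in every setting. Their COL8A1 level was uneven, with 1669.6 and 27.0 CPM in the G90 glands, 434 and 960.0 in the L0 glands, 22.3 and 332 in the L20 glands, 206 and 41.9 in the PI2 glands and 84.2 and 154 in the PI7 glands. Lymphatic nuclei exceeded all other classes for COL8A1 in 8 of 10 glands and blood endothelial nuclei in the other 2. With the nuclei that held a lymphatic marker kept in, a choice made after seeing the values, blood endothelial COL8A1 was 1474 and 216 CPM in the G90 glands, 488 and 842 in the L0 glands, 87.4 and 380 in the L20 glands, 229 and 44.0 in the PI2 glands and 126 and 142 in the PI7 glands. Blood endothelial nuclei then stayed above lymphatic nuclei in G90 replicate 1 and not in L0 replicate 2. In that fit the 3 higher members were again called, with COL18A1 as the fourth, and of the 4 lower ones COL16A1 was called.

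Adipocyte nuclei, which reached 20 per gland in only 3 glands, were higher for 6 members and lower for 4, where 8.69% of genes were higher and 8.8% lower. COL15A1 (3.34 ± 0.39), COL5A3 (3.22 ± 0.30), COL4A2 (2.18 ± 0.34) and COL5A2 (1.70 ± 0.26) were kept in every setting that could be run with adipocytes, and 5 calls were made, against 10, without L20 replicate 2. Those without nuclei carrying markers of another class, or with at least 50 nuclei per gland, left too few glands. COL3A1 (1.80 ± 0.36) was not kept without PI2 replicate 1 (0.56). Of the 4 lower calls, COL17A1, COL18A1, COL19A1 and COL23A1, 0 were kept in every setting, and each was lost without L20 replicate 2. Summed fibroblast markers were 386 to 498 CPM in these 3 glands, and their part in the result was not tested. COL15A1 lay between 224 and 834 CPM there and was above all other classes in each of the 3 glands.

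B and plasma nuclei were higher for 4 members and lower for 7, where 6.56% of genes were higher and 5.01% lower. COL19A1, a rare fibril-associated chain, was at 100.2 CPM in G90 replicate 1, 683 and 587 at L0, 156 and 404 at L20, 432 in PI2 replicate 2, and 236 and 532 at PI7. Each of the 8 glands had its highest COL19A1 level in this class, T and NK nuclei lay between 5.1 and 77.2 CPM, and the log2 fold change was 3.88 ± 0.23 (adjusted p = 1.3e-26, edgeR). The tissue sections held 10 COL19A1 UMIs at G90 and 6 at PI2. COL19A1 alone of the 4 was kept in every setting, and COL26A1 (1.82 ± 0.43), COL22A1 (1.26 ± 0.39) and COL28A1 (1.19 ± 0.43) were not. Of the 7 lower calls, 3 were kept in every setting. COL19A1 ends 1098 bases from the end of COL9A1 on chromosome 1, with the genes pointing at each other.

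In the remaining classes collagens were mostly low. Luminal epithelial nuclei were higher for COL17A1 alone, with 1.01 ± 0.15, which fell under the fold limit in 5 other settings, and lower for 19 members, where 9.23% of genes were higher and 14.2% lower. Macrophage nuclei were higher for 0 and lower for 16 members, where 9.96% and 8.98% of genes were, and T and NK nuclei for 0 and 15 members, where 8.11% and 8.62% were. Of the lower calls, 16 of 19 luminal, 13 of 16 macrophage and 10 of 15 T and NK calls were kept in every setting.

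Levels of different collagens were compared per kilobase of exon, pooled over glands. Since a UMI marks 1 molecule, this division sets longer chains lower, and undivided levels are given for fibroblast nuclei. COL6A1 had no exon length under its symbol in RefSeq and is not among them. In fibroblast nuclei COL3A1 was first with 704 CPM per kb, then COL1A2 with 557 and, after COL1A1, COL5A2 with 223. Undivided, COL3A1 had 3356 CPM, COL1A1 2861, COL1A2 2830, COL6A3 1588 and COL5A2 1436. COL1A1 then stood above COL1A2, and COL6A3 above COL5A2. Taken gland by gland, COL3A1 was first in 8 of 10, COL1A2 in L20 replicate 1 and COL4A2 in PI2 replicate 2. COL4A2 was first in mural nuclei with 197 CPM per kb, and in 6 of 7 glands. Pooled adipocyte nuclei are mostly those of L20 replicate 2, where COL4A2 was first, while COL3A1 was first in PI2 replicate 1 and COL5A2 in PI7 replicate 1. Myoepithelial nuclei had COL17A1 first with 94.7 CPM per kb and COL5A2 with 82.8, and COL17A1 was first in 6 of 10 glands. Lymphatic nuclei had COL8A1 first with 98.4 (9 of 10 glands), and B and plasma nuclei had COL19A1 first with 31.6 (5 of 8 glands). COL3A1 and COL5A2 are neighbours on chromosome 15, with 16177 bases between their ends.

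Genes that fold, modify and crosslink collagen were followed as a list of 32, of which 31 were in the files and 28 were tested between classes. In fibroblast nuclei 16 were higher and 0 lower, where 9.65% and 2.97% of all genes were, with a median log2 fold change of 1.14 against -0.0034 over all genes. They included the crosslinking enzymes LOX (4.07 ± 0.22) and LOXL1 (3.41 ± 0.23), the propeptide protease ADAMTS2 (3.34 ± 0.16), the lysyl hydroxylase PLOD2 (3.10 ± 0.20) and the collagen chaperone SERPINH1 (2.43 ± 0.21). Mural nuclei were higher for 8 and lower for 1 (8.08% and 2.38% of genes), and myoepithelial nuclei were higher for 7 and lower for 2 (8.32% and 7.06%), with the protease ADAMTS3 (4.25 ± 0.22) first. Luminal nuclei were higher for 2 and lower for 14 (9.23% and 14.2%).

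Of 11 collagen receptors, 10 were tested, against the same shares of all genes in each class. Fibroblast nuclei were higher for the uptake receptor MRC2 (3.51 ± 0.18), the integrin chains ITGA11 (3.11 ± 0.19) and ITGA10 (just past the fold limit) and the receptor kinase DDR2 (1.45 ± 0.21), and lower for ITGA2 (-1.02 ± 0.25). Mural nuclei were higher for 4 and lower for 0, with ITGA1 first (3.78 ± 0.21). Myoepithelial nuclei were higher for ITGA2 (2.54 ± 0.21), ITGA1 (2.03 ± 0.21), DDR2 (1.75 ± 0.22) and DDR1 (1.58 ± 0.16) and lower for 1. Over the stages, edgeR called 0 genes of either list in whole glands and in each class tested, and unadjusted p-values and DESeq2 calls were not counted for these lists.

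Whether fibroblast nuclei themselves carried more or less collagen RNA at a stage was asked next. COL1A1 in fibroblast nuclei had 3667 and 1772 CPM in the G90 glands, 2809.7 and 2745 in the L0 glands, 4780.3 and 3562 in the L20 glands, 1489 and 989 in the PI2 glands and 1438 and 1168 in the PI7 glands. COL1A2 had 3727 and 2670.1, 2893 and 2627, 4396 and 3407, 1172 and 1005, and 1863 and 1055 CPM in the same order. COL3A1 had 4636 and 2868, 3415 and 3081, 3859 and 4027, 1699 and 1591, and 2301 and 1141 CPM. All 4 glands of involution thus lay below all 6 earlier glands for these 3 chains, which was seen first and grouped afterwards, so it carries no test.

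The means were 1271 ± 235 CPM (SD, n = 4) in involution and 3223 ± 1024 (n = 6) before for COL1A1, 1274 ± 399 and 3287 ± 694 for COL1A2, and 1683 ± 478 and 3648 ± 655 for COL3A1. Of 34 members with at least 100 UMIs in these nuclei, the 3 were the ones whose glands did not overlap, where 0.199% of 13534 genes were lower without overlap, and 0 members were higher, where 0.887% of genes were. The 3 chains also did not overlap under the stricter gate or without nuclei carrying markers of another class. The glands held between 47 (L0 replicate 2) and 4177 (L20 replicate 2) fibroblast nuclei.

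**Figure D3:**
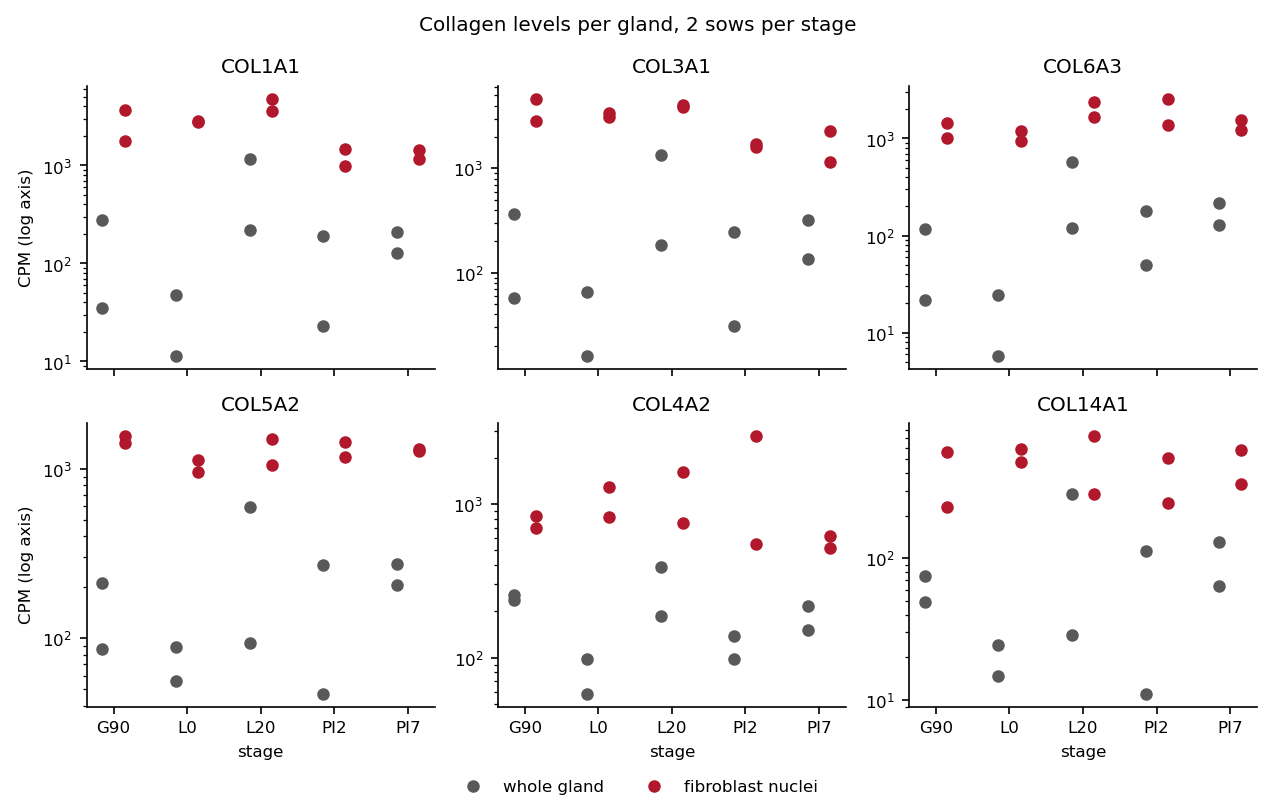
CPM of COL1A1, COL3A1, COL6A3, COL5A2, COL4A2 and COL14A1 by stage in the whole gland (grey) and in fibroblast nuclei (red), on log axes, with 1 point per gland and 2 glands per stage. COL1A1 spreads from 11.3 to 1166 CPM over whole glands, while in fibroblast nuclei the 4 involution glands, at 989 to 1489 CPM, lie under the 6 earlier ones, at 1772 to 4780.3 CPM.

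By edgeR, 0 of 33 members were called over the stages in fibroblast nuclei, where 0.016% of 12510 genes were. The 4 adjacent contrasts called 0 members and 0% of genes. Members with an unadjusted p under 0.05 numbered 3 over the stages, where 5.52% of genes had one, and 3, 2, 3 and 3 were also past the fold limit in the contrasts, where 6.07%, 6.47%, 4.32% and 2.03% of genes were. DESeq2 called 2 over the stages (1.14% of genes), 1 in PI2 against L20 (0.0639%) and 0 in the other contrasts (0.152%, 0.32% and 0%). Without L20 replicate 2 and PI2 replicate 2, edgeR called 6 members over the stages, where 4.5% of genes were called, namely COL1A1, COL1A2, COL5A3, COL6A6, COL13A1 and COL21A1, and 2 in PI2 against L20 (0.838% of genes), with COL6A6 higher and COL13A1 lower. With all glands, PI2 against L20 gave COL1A2 a log2 fold change of -1.87 ± 0.56 (adjusted p = 0.999, edgeR), COL1A1 -1.79 ± 0.57 and COL3A1 -1.29 ± 0.57.

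The spread over glands was narrower within fibroblast nuclei for COL1A1, COL1A2, COL3A1, COL5A1, COL5A2, COL6A1 and COL6A3. The highest gland exceeded the lowest 103.3-fold for COL1A1 in whole glands and 4.84-fold in fibroblast nuclei, 100.7-fold and 2.71-fold for COL6A3, and 12.7-fold and 1.62-fold for COL5A2. For COL5A3 the spreads were near each other, at 16.8-fold and 14.3-fold. Of 21 members compared, 13 were narrower in fibroblast nuclei, and COL6A6, at 0 in 1 gland, was not among the 21. No share of all genes is given beside this count, so it is not read as a trait of collagens. COL8A1 went the other way, with 16.2-fold in whole glands and 38.8-fold in fibroblast nuclei, as did COL11A1 with 7.27-fold and 12.4-fold.

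Within the other classes edgeR called few collagens over the stages, and also few of all genes. It called 0 of 26 members in blood endothelial nuclei (0% of 9489 genes). In myoepithelial nuclei it called 0 of 22 (0.0911% of 6583) and in luminal nuclei 0 of 36 (0.0891% of 20210). In the same order DESeq2 called 0, 1 and 6 members (0.527%, 0.744% and 10.3% of genes). An unadjusted p under 0.05 was held by 0, 4 and 6 (4.48%, 5.92% and 13.4%). Without L20 replicate 2 and PI2 replicate 2 the edgeR calls in these 3 classes were 1, 3 and 4 (0.87%, 2.17% and 8.45% of genes). In mural nuclei of 7 glands, 2 of 25 members passed the test over the stages, where 0.687% of 7130 genes did. COL15A1 (adjusted p = 0.00713, edgeR) had 852 CPM in G90 replicate 1, 555 in L0 replicate 1, 164 and 86.2 at L20, 45.1 in PI2 replicate 1, and 151 and 119.6 at PI7. COL8A1 (adjusted p = 0.00489, edgeR) had 958, 139, 0 and 124, 32.2, and 197 and 119.6 CPM in the same order. Both were highest in the single G90 gland. G90, L0 and PI2 had 1 gland each with enough mural nuclei, so the spread behind these p-values came from L20 and PI7 alone, and 0 members were called with the replicate number as a block or without G90 replicate 1, PI7 replicate 1 or PI7 replicate 2. Without L20 replicate 2, the spread came from PI7 alone, so nothing is read from the calls of that fit. PI2 replicate 2, with 10 mural nuclei, was in no mural fit, so leaving it out as well gives the same fit. DESeq2 called 2 members (0.365% of genes) and 3 had an unadjusted p under 0.05 (5.06%).

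In the tissue sections, the G90 section held 4721 spots and 42815421 UMIs and the PI2 section 2248 spots and 17906403 UMIs. Summed collagens were alike, at 5044 CPM (95% exact Poisson interval 5022 to 5065) at G90 and 5413 CPM (5379 to 5447) at PI2. There was 1 section per stage, so no test between stages was made, and the intervals cover counting error only. Individual chains parted in both directions. COL3A1 was 1471 CPM (1459 to 1482) at G90 and 629.8 (618 to 642) at PI2, whereas COL6A1 was 409 CPM (403 to 415) at G90 and 1211 (1195 to 1227) at PI2. COL1A1 was 415 and 672 CPM, COL1A2 685 and 765, COL4A2 486 and 443, COL18A1 457 and 723, and COL17A1 87.6 and 161 CPM.

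Among 28 members with at least 20 UMIs in each section, 2 were more than 2-fold higher in the PI2 section, where 13% of 11868 genes were, and 7 were more than 2-fold lower, where 13.4% were. The higher ones were COL6A1 (2.96-fold) and COL6A2 (7.68-fold, from 38 to 122 UMIs). The lower ones were COL9A1 (135 to 19.9 CPM, 6.79-fold), COL21A1 (4.29-fold), COL15A1 (3.64-fold), COL3A1 (2.34-fold) and COL5A3 (2.20-fold), with COL2A1 (4.68-fold) and COL9A3 (3.01-fold), which were named after their values were seen. Another 6 members reached 20 UMIs in 1 section alone. COL13A1 had 544 UMIs at G90 and 14 at PI2 (12.7 and 0.78 CPM), COL26A1 156 and 14 (3.64 and 0.78 CPM), COL11A1 54 and 5 and COL28A1 23 and 2, whereas COL4A4 had 10 and 49 and COL4A3 3 and 20. With these 6, 4 of 34 members were more than 2-fold higher, where 13% of 13129 genes were, and 11 were lower, where 17.1% were. COL1A1 was higher in the PI2 than in the G90 section by 1.62-fold, while its level in fibroblast nuclei was 1489 and 989 CPM at PI2 and 3667 and 1772 CPM at G90. COL10A1 had 0 UMIs in both sections, and a limit of 3 counts allows up to 0.0701 CPM at G90 and 0.168 CPM at PI2, where the exact Poisson limits are 0.0862 and 0.206 CPM.

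**Figure D4:**
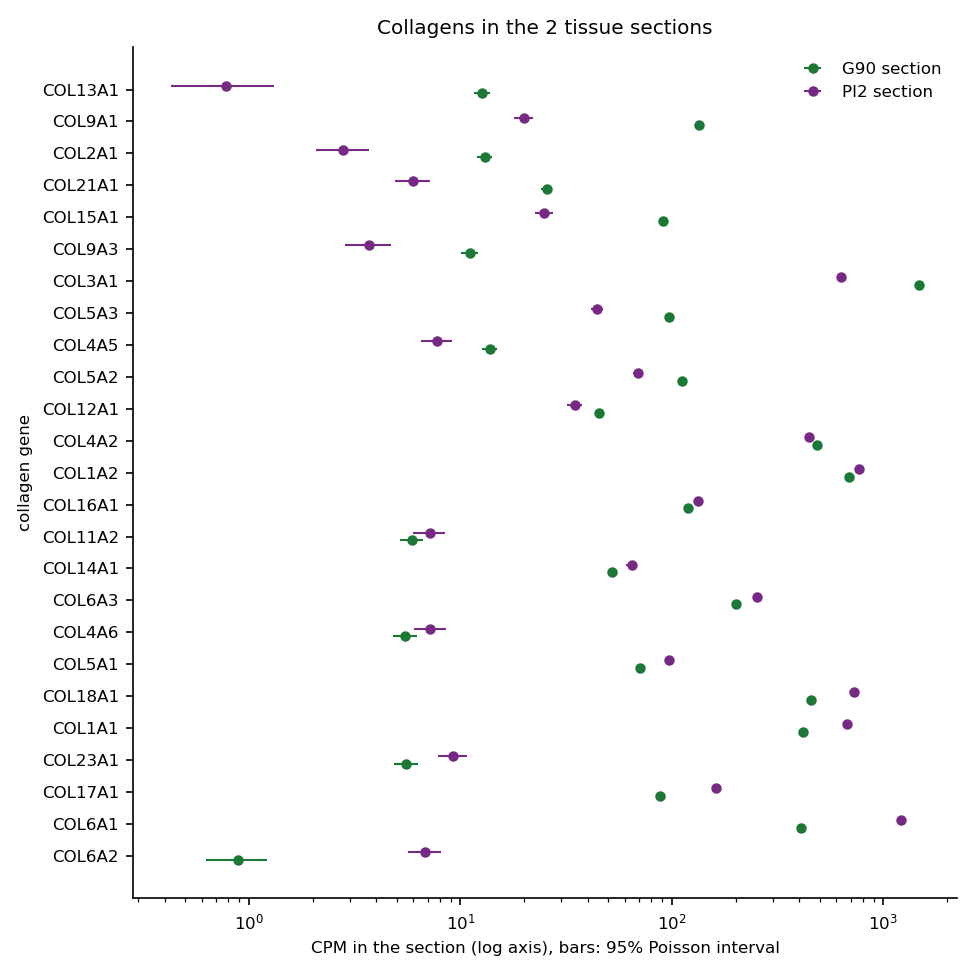
CPM of 25 collagen genes on a log axis in the G90 section (green) and the PI2 section (purple), 1 section each, with bars for 95% exact Poisson intervals. From top to bottom the ratio of PI2 to G90 rises, so that COL3A1, near the top, is lower at PI2 (1471 and 629.8 CPM) and COL6A1, near the bottom, is higher (409 and 1211 CPM).

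Spots with the highest share of fibroblast marker UMIs were higher for COL1A1, COL1A2, COL3A1, COL5A1, COL5A2 and COL5A3. The other 4 fibrillar chains had too few UMIs there. In the 10% of spots with the highest fibroblast marker share, COL1A2 was 3.76-fold higher than in the other spots at G90 and 7.44-fold higher at PI2, COL14A1 4.96-fold and 8.90-fold, COL1A1 3.27-fold and 5.20-fold, and COL5A3, the least of the 6 fibrillar chains, 1.49-fold and 1.83-fold. COL17A1 was 0.65-fold and 0.44-fold there, and was 1.80-fold and 2.60-fold higher in the top myoepithelial spots and 1.87-fold and 2.56-fold in the top luminal spots. At G90, COL8A1 was 10.4-fold higher in the top lymphatic spots, and COL6A6 10.0-fold in the top adipocyte spots and 7.43-fold in the top fibroblast spots. At PI2, fewer than 20 UMIs fell in these top spots, so no ratio was formed, and the levels there and in the other spots were 6.97 and 1.93 CPM for COL8A1 (5 UMIs in the top spots), 14.0 and 2.45 CPM for COL6A6 in adipocyte spots (15 UMIs) and 30.3 and 2.16 CPM in fibroblast spots (19 UMIs). COL9A1 was not higher in the top myoepithelial spots, at 0.88-fold and 0.75-fold.

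Nuclei and sections ranked the collagens differently. The ratio of nuclear CPM, averaged over the 4 glands of G90 and PI2, to the mean CPM of the 2 sections was 50.8 for COL11A1, 26.8 for COL4A3 and 23.9 for COL28A1, which had 59, 23 and 25 section UMIs, and at the low end 0.122 for COL2A1, 0.131 for COL18A1, 0.167 for COL3A1 and 0.184 for COL1A2. COL6A1, with no gene length under its symbol in RefSeq, was lower still at 0.0677. The others are among the 32 genes with a gene length and at least 20 UMIs over both sections, a limit chosen after the values were seen. The ratio was larger for longer genes, with a Spearman correlation of 0.544 across these genes, which share their libraries, given as a description. The correlation was 0.638 across 35 genes with the 3 below the limit. Those 3, COL25A1, COL22A1 and COL19A1, had the largest ratios, at 446, 89.6 and 53.9, on 2, 6 and 16 section UMIs. Among the 32 genes, the median ratio was 2.40 for the 19 genes of at least 100 kb and 0.401 for the 13 shorter ones. Nuclear RNA holds unspliced transcripts, and what part they had in the ratio was not tested.

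**Figure D5:**
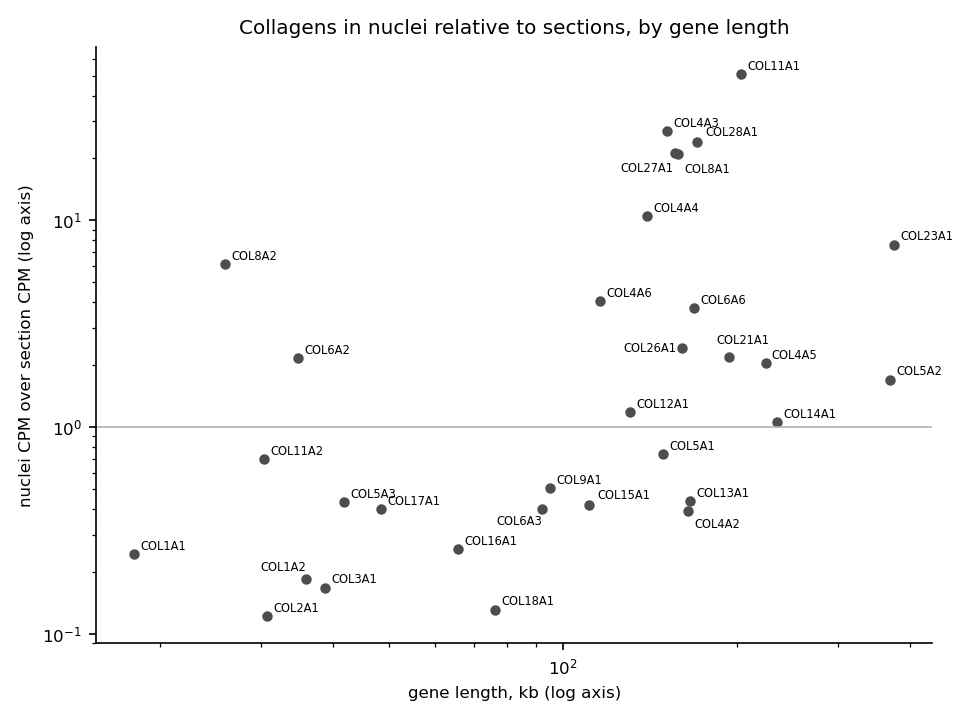
Ratio of nuclear to section CPM against gene length in kb, both on log axes, with 1 point for each of 32 collagen genes and a line at equal CPM. COL11A1 (ratio 50.8) lies highest, and COL1A1 (0.243) and COL3A1 (0.167) lie at the lower left.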

How the data were processed

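Nuclei of 10 pig mammary glands and 2 tissue sections were analysed. Per the labels and the study's methods, the authors deposited UMI counts per gene and barcode, made from GEXSCOPE nuclear libraries with CeleScope and from the sections with Space Ranger 1.2.0 (the submitters' processing notes) against Sscrofa11.1, and used Seurat 4.3.0 later. For the annotation release, the version is not given in the sources used. No doublet caller was run and free RNA was not removed.

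From these counts, nuclei that held 300 genes or more, and no more than 25% of UMIs from mitochondria, were kept and gated by markers, at least 2 of a class and more than of any other, with the blood endothelial nuclei that held a lymphatic marker left out. UMIs were summed per sow, or per sow and class with at least 20 nuclei, and tested with edgeR 4.0.16 (quasi-likelihood, TMM, filterByExpr) in R 4.3.3, with Benjamini-Hochberg adjustment over all genes tested. DESeq2 1.42.0 was an alternative, as were other filters, gates, blocks and each gland left out, with a few alternatives added after the data were seen. A stage test called at an adjusted p under 0.05, and contrasts also needed an absolute log2 fold change over 1. Simulated data were run for PI2 against L20 in whole glands and in fibroblast nuclei, and for mural against fibroblast, macrophage and myoepithelial nuclei. The test over the stages was not among these checks, and their outcome is not given here. Sections, 1 per stage, had exact Poisson intervals at 95%. UMI depth ran from 18700704 to 53161349 per gland.

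Members with a mean of at least 10 CPM in the whole gland, or called in any test, were named. Members, markers and lists were chosen with earlier results of these data known. Levels were computed with Python 3.11.15, pandas 2.3.3 and scipy 1.17.1. Milk cells were not used here. One further upstream sequence is not reported here.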

Additional observations from a re-analysis of the deposited data

Results flagged for a closer look

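Of 65 sets of glands examined (1 collagen in 1 class), 10 held a gland far from the others. The limit used is passed by chance in about 1 in 20 sets of independent, normally distributed values, and these levels share glands. The value given is the gap to the nearest gland divided by the whole range. In fibroblast nuclei, COL12A1 (0.63) was 1375 CPM in PI2 replicate 2 with the next gland at 623 CPM, COL4A2 (0.506) was 2766 CPM in PI2 replicate 2 with the next at 1629 CPM, and COL6A6 (0.534) was 558 CPM in L20 replicate 2 with the next at 260.1 CPM. PI2 replicate 2 had 118 fibroblast nuclei.

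In mural nuclei, G90 replicate 1 stood apart for COL8A1 (0.794), at 958 against 197 CPM, and for COL14A1 (0.705), at 522 against 154 CPM. COL5A3 (0.796) was 1209.9 CPM in L20 replicate 1 with the next gland at 406 CPM, and COL18A1 (0.584) was 939.8 CPM in L0 replicate 1 with the next at 522 CPM. These rest on 79, 28 and 36 mural nuclei.

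In myoepithelial nuclei, G90 replicate 1 stood apart for the neighbours COL4A3 (0.751), at 592 against 158 CPM, and COL4A4 (0.662), at 549 against 197 CPM. COL9A1 (0.753) was 329 CPM in PI2 replicate 1 with the next gland at 95.1 CPM, and the luminal nuclei of that gland also had the highest luminal COL9A1, at 66.3 CPM.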

How the results depend on the processing

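No class call changed direction in any setting. Where no share of all genes was given above for a setting, its count below is not set against all genes. Nothing is read from the size of such a count. Of the stage tests in whole glands, which called 0 collagens, an unadjusted p under 0.05, with the fold limit kept in contrasts, called 7 over the stages and 5, 15 and 2 in L0 against G90, L20 against L0 and PI2 against L20. DESeq2 called 5 over the stages and 8 in L20 against L0, no filter on low counts called 2 and 4, and a fit of the compared stages alone called 1 in L0 against G90. Leaving out each gland gave 0 throughout. In fibroblast nuclei an unadjusted p called 3 over the stages and 3, 2, 3 and 3 in the contrasts, DESeq2 called 2 over the stages and 1 in PI2 against L20, and no filter called 2 over the stages and 1 in L20 against L0. Leaving out each gland gave 0 to 2 over the stages and 0 to 1 in L20 against L0, the upper values without L20 replicate 1. Blood endothelial nuclei had 1 call with no filter. Myoepithelial nuclei had 4 with an unadjusted p, 1 with DESeq2, 2 with no filter and 0 to 1 with each gland left out (1 without G90 replicate 2 or PI2 replicate 2), and luminal nuclei had 6, 6, 4 and 0 to 2 (2 without PI2 replicate 1). Mural calls over the stages, 2 in all glands, numbered 5 under the stricter gate and 0 to 4 with each gland left out. B and plasma calls, 11 in all glands, numbered 7 with no sow block, 6 under the stricter gate and 5 without nuclei carrying markers of another class, and 8 to 13 with each gland left out. Adipocyte calls ranged from 5 (without L20 replicate 2) to 10, and could not be had without mixed nuclei or with at least 50 nuclei per sum. Without both L20 replicate 2 and PI2 replicate 2, glands chosen after the data were seen, calls over the stages were those given above. They were made in whole glands and in fibroblast, blood endothelial, myoepithelial and luminal nuclei, in a fit with 1 gland at L20 and at PI2. With all glands in the fit, DESeq2 or no filter on low counts also gave calls in each of these. The counts of 0 over the stages were thus not kept in every setting. With the blood endothelial nuclei that held a lymphatic marker kept in, a choice made after seeing the values, calls over all classes numbered 148, against 146. The cause of these changes was not tested.

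Same-numbered glands did not deviate together (correlations -0.522 to 0.388), so the replicate numbers pair nothing. With the replicate block the mural calls became 0, and every other stage test had 0 calls, as without it. Library totals without TMM shifted the median log2 fold change of all genes in whole glands to -0.58, 0.77, -0.29 and 0.39 in the 4 adjacent contrasts. The mean over nuclei of summed collagens was 844 CPM at L0, the mean over spots was 6062 and 7164 CPM in the G90 and PI2 sections, and the stricter gate gave 7.31% fibroblast nuclei at PI7, where leaving out nuclei carrying markers of another class, added after the data were seen, gave 4.48 ± 0.12%. Mural and adipocyte sums rest on few nuclei.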

Other observations

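COL4A1, COL24A1 and COL6A5 were listed by identifier alone in the nuclei and are therefore not among the 37 genes. COL4A1, the partner chain of COL4A2 on chromosome 11, had a mean of 113 CPM over the 10 glands (26.0 to 279.5). Its pooled level was highest in mural nuclei, at 1019.6 CPM, followed by blood endothelial (582 CPM), adipocyte (558 CPM) and fibroblast nuclei (554 CPM), against 39.2 CPM in T and NK nuclei. COL24A1, a fibrillar chain, had a mean of 14.4 CPM and was highest in lymphatic nuclei, at 62.0 CPM pooled. COL6A5, a type VI chain, had a mean of 3.97 CPM and 15.9 CPM pooled in fibroblast nuclei.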
